A study of Mus musculus with 13 samples.

Results

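Hair cells of the newborn mouse cochlea were compared with a gate of supporting cells on Illumina mouse BeadChip arrays, which measure the brightness of probe-carrying beads. The comparison set 4 arrays of cells positive for Math1-nGFP, a nuclear green fluorescent reporter driven by an enhancer of the hair cell factor Math1 (Atoh1), here HC, against 2 arrays of cells that the labels call Deiters' and Claudius cells, here DC. The 6 arrays were chosen by their sample titles out of 13, and every gene that passed the filter on dim probes was examined, 10088 in all. The DC cells were negative for the reporter, low for CD271, low for CD146 and positive for CD326. Cells of both gates were sorted from cochleae of C57BL6 mice aged 3 days, and both carried the reporter transgene. A further GFP-negative gate, named after the greater epithelial ridge and here GER (3 arrays), shared the CD271 and CD326 settings of DC but was high for CD146, and it is used to place the DC levels. The labels do not say whether replicates came from separate litters or how many cochleae were pooled, so the p-values measure the spread between these arrays, which may be technical. The DC gate is by its label a mixture of more than 1 cell type, and a difference in the share of a cell type cannot be told apart from a difference in RNA per cell.

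Hair cells are the mechanoreceptors of the inner ear. Their apical bundle of stereocilia carries the transduction channel, and their base releases glutamate from ribbon synapses onto spiral ganglion neurons. Deiters cells hold the outer hair cells from below and touch them through Notch ligand and receptor pairs, while Claudius cells form the flat epithelium lateral to the organ of Corti. In the newborn mouse hair bundles and synapses are still maturing, and supporting cells still carry many genes of the prosensory epithelium from which both cell types arise.

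Signals were background-corrected, quantile normalized and put on a log2 scale, so that a difference of 1 is a doubling of fluorescence, and each gene was represented by its brightest probe. All 10 fixed hair cell markers (Myo7a, Myo6, Pou4f3, Gfi1, Otof, Pvalb, Lhx3, Chrna10, Cdh23 and Tmc1) were higher in HC, and 22 of 24 Deiters and 27 of 27 Claudius, Hensen and outer sulcus markers were detected in DC. In HC 21 and 25 of the same markers were detected, so detection alone does not set DC apart. Of the fixed Deiters markers, Hey2 and Bace2 were lower in HC by the test below. Fgfr3, Prox1, Lgr5, Hes5 and Jag1 did not pass it, and Lfng is not reported here. Levels are comparable between arrays for 1 probe and not between genes. Differences are HC minus DC on the log2 scale ± the standard error of limma's fit, and a gene was called where its p, adjusted by the Benjamini-Hochberg method over all 10088 genes, was under 0.05. Where a gene was not detected above background on any array of a gate, only a lower bound of the fold is given, written "at least": the level of the bright gate over, on each dim array, the higher of the lowest signal called detected and the probe's own. For a gene detected on only some arrays of a gate, the fold is the fitted one. Such a fold includes values below detection and cannot be ranked against the bounds. Between 40.2% and 44.2% of probes were detected on the 6 arrays, and Pearson's r over the genes was 0.959 to 0.983 between HC arrays, 0.987 between the DC arrays and 0.859 to 0.878 between the gates. Genes within an array are not independent, so r is only a description. HC A shared beadchip 1 with both DC arrays, while the other 3 HC arrays were on a beadchip without DC, so values from HC A against DC alone are given where they end a call. HC C and HC D stood apart from HC A and B on lists of other cell types, whose scores are given with those lists. The fit on beadchip 1 used every array of that beadchip, of all populations, and the lone HC array is assumed to vary like the other populations.

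Of the 10088 genes, 1577 (15.6%) were higher in HC and 2044 (20.3%) were lower, 35.9% in all, with a median difference over all genes of -0.09. The higher genes reached further by their fitted differences: 258 (2.56%) were called at 8-fold or more above DC, against 27 (0.268%) at 8-fold or more below. Called differences of at least 2-fold were closer in number, 1008 (9.99%) up and 1073 (10.6%) down. The HC arrays lay above both DC arrays for 2280 genes (22.6%) and below both for 2997 (29.7%). At an unadjusted p under 0.05, 4498 genes (44.6%) differed. Of the genes called higher, 397 were not detected on either DC array, and of those called lower, 261 were not detected on any HC array. Without HC C the counts were 1545 higher and 1903 lower, and without HC D 1552 and 2169. Both counts were lower on beadchip 1 alone, without DC A and without DC B, fits that each leave 1 array in a gate.

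Genes were ordered by their fitted differences, in which values below detection have no order of their own. By that order Cpne9 came first, a calcium-dependent membrane-binding copine, with log2 levels of 13.60, 13.10, 13.32 and 13.46 on HC replicates A to D and 5.98 and 5.60 on DC replicates A and B. Both DC values were below detection, and the difference was at least 84.6-fold (7.58 ± 0.20, adjusted p = 4.0e-10), a bound that other genes exceeded. Cplx1, complexin 1, which clamps and primes synaptic vesicle fusion, had 12.82, 12.63, 12.52 and 12.99 on the HC arrays and 5.32 and 5.66 on the DC arrays and was at least 54.8-fold (7.25 ± 0.28, adjusted p = 4.0e-09) above DC. Ap3b2, the neuronal beta subunit of the AP-3 vesicle adaptor, had 13.29, 13.40, 13.43 and 13.52 on the HC arrays and 6.91 and 5.91 on the DC arrays, was detected on 1 of the 2 DC arrays and was 128-fold (7.0 ± 0.24, adjusted p = 2.0e-09) higher. All 4 HC arrays stood far above both DC arrays for each of these genes. The other genes among the 15 highest, with their folds above DC, were Ccl21a (at least 78.8-fold), Myo7a (at least 61.3-fold), Chrna1 (117-fold), Gng8 (109-fold), Chrna10 (103-fold) and Faim2 (at least 48.6-fold), followed by Ccl21c (at least 36.3-fold), Grxcr2 (94.4-fold), Otof (91.5-fold), Cxcl14 (at least 41.9-fold), Egfl9 (85.3-fold) and Insc (at least 66.4-fold). They join bundle and synapse proteins (Myo7a, Grxcr2, Otof), acetylcholine receptor subunits (Chrna1, Chrna10), the G protein gamma subunit Gng8, the Fas-inhibitory protein Faim2, the chemokine Cxcl14, Egfl9 (an older symbol of Dlk2, a Delta-like protein) and Insc, an adaptor that orients the mitotic spindle and hair cell polarity proteins. Ccl21a and Ccl21c are near-identical copies, and which copy gave the signal is uncertain. Chrna1 and Grxcr2 were detected on only 1 of 2 DC arrays, so their folds, like that of Ap3b2, include a value below detection.

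At the other end Bmp4, a bone morphogenetic protein of the lateral cochlear wall, had log2 levels of 9.45, 8.45, 8.90 and 7.74 on HC replicates A to D and 13.56 and 14.14 on DC replicates A and B. It was 37.2-fold (-5.22 ± 0.42, adjusted p = 1.4e-06) lower in HC. Bmper, a secreted Bmp-binding protein, had 7.54, 6.22, 7.52 and 6.26 on the HC arrays and 11.35 and 11.38 on the DC arrays and was 22.3-fold (-4.48 ± 0.36, adjusted p = 1.4e-06) lower. Pmch, the precursor of melanin-concentrating hormone, had 6.54, 5.50, 5.50 and 5.71 on the HC arrays and 10.97 and 10.66 on the DC arrays and was at least 13-fold (-5.0 ± 0.28, adjusted p = 6.2e-08) lower. In all 3 genes both DC arrays lay above all 4 HC arrays by more than the whole range within HC. Others among the 15 lowest, with their folds below DC, were Fst (at least 16.7-fold), Slc12a8 (20.2-fold), Sdr16c5 (at least 6.48-fold), Apoa4 (at least 5.22-fold), Fbln2 (13.7-fold) and Apoc1 (12.8-fold), followed by Spink8 (at least 5.37-fold), Vwa2 (12.7-fold), Tmprss9 (10.7-fold), Aebp1 (10.6-fold), Aldh1a7 (at least 5.63-fold) and Enpp1 (9.20-fold). They include follistatin (Fst), apolipoproteins (Apoa4, Apoc1), the matrix protein fibulin 2 (Fbln2) and a retinol dehydrogenase (Sdr16c5). Tmprss9 missed the threshold without DC A (adjusted p = 0.060), without DC B (0.065) and on beadchip 1 alone (0.083). Slc12a8 was detected on only 1 of 4 HC arrays. Bmper was detected on only 2 of 4 HC arrays. Apoc1 and Enpp1 were detected on only 3 of 4 HC arrays.

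**Figure D1:**
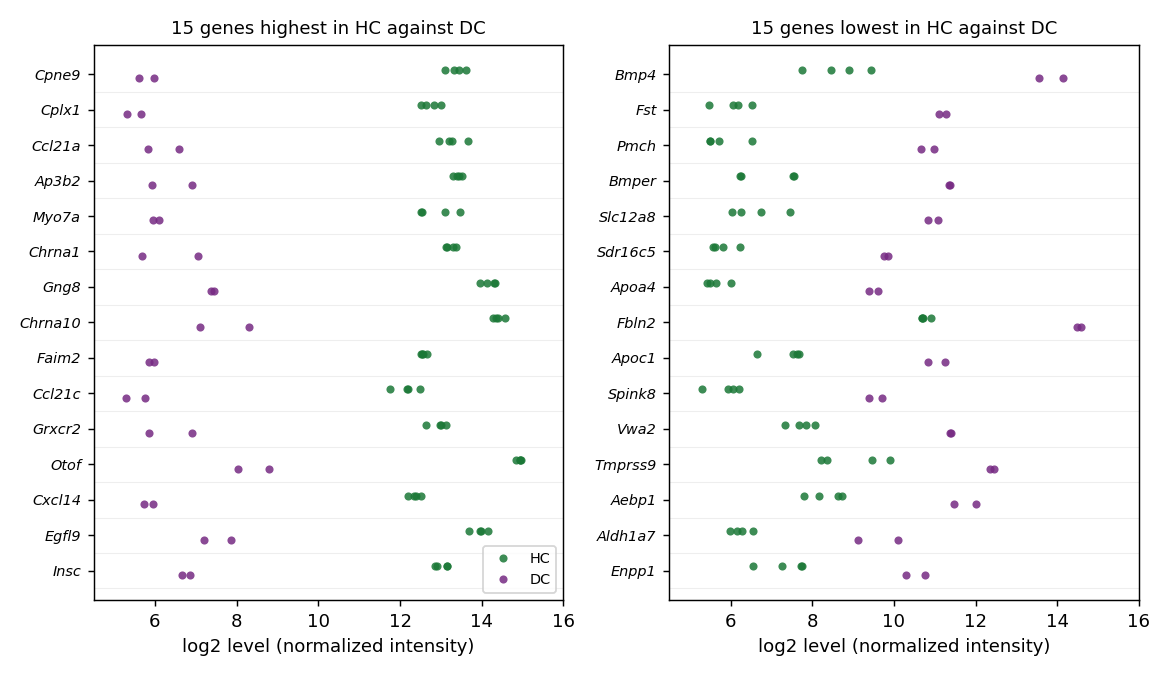
Log2 level of the 15 genes highest (left) and 15 lowest (right) in HC against DC; each point is 1 array, green for the 4 HC arrays and purple for the 2 DC arrays. In every gene shown the arrays of the 2 gates do not overlap, which the choice of genes required.

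Hair bundle and transduction genes were the most strongly HC-high of the lists examined by median. Of 39 tested members, 28 were higher in HC, 2 were lower and 9 did not pass, with a median difference of 2.65 (2.17 with members undetected in 1 gate set at their bound), against 15.6% higher and 20.3% lower over all genes. Myo7a, the unconventional myosin of the upper tip-link end, had 12.52, 13.10, 13.46 and 12.54 on the HC arrays and 6.10 and 5.95 on the DC arrays, with no overlap between the gates. The actin crosslinkers and bundle regulators Fscn2 (70.1-fold), Espnl (62.8-fold) and Espn (17.9-fold) were higher, as were the glutaredoxin-like bundle proteins Grxcr1 (at least 15.5-fold) and Grxcr2 (94.4-fold). Of the transduction complex, Tmc1 (at least 40.6-fold), Tmie (8.84-fold) and Cib2 (9.06-fold) were higher. Tmc2, the channel subunit used early in postnatal life, was at least 2.29-fold (2.84 ± 0.22, adjusted p = 1.1e-06) higher and the tip-link cadherin Cdh23 6.30-fold (2.65 ± 0.41, adjusted p = 0.00037). The other tip-link cadherin, Pcdh15, gave 7.71, 6.97, 6.85 and 7.78 on the HC arrays and 6.80 and 6.61 on the DC arrays and did not pass (0.62 ± 0.34, adjusted p = 0.19). The further members Myo15 (at least 35-fold), Ptprq (at least 13.1-fold), Clrn1 (at least 16.8-fold) and Myo3b (at least 10.9-fold) were higher, and so was Myo6 (1.87 ± 0.18, adjusted p = 6.8e-06). The list median was 1.64 in the authors' table. Pcdh15 passed on beadchip 1 alone (1.0, adjusted p = 0.047).

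The synaptic genes showed the same direction. Of 29 tested ribbon synapse and vesicle release genes, 20 were higher in HC, 5 were lower and 4 did not pass, with a median difference of 1.82 (1.45 with members undetected in 1 gate set at their bound). Otof, the calcium sensor of hair cell exocytosis, had 14.96, 14.94, 14.85 and 14.94 on the HC arrays and 8.78 and 8.03 on the DC arrays, and the lowest HC array stood above both DC arrays by more than the range within HC. Slc17a8, the vesicular glutamate transporter that loads hair cell vesicles, was 16.8-fold (4.07 ± 0.22, adjusted p = 5.2e-08) higher. The vesicle protein Syp and the active zone protein Rims2 were higher by 27.6-fold and 16.7-fold, respectively. The calcium channel of the ribbon synapse was represented by its pore subunit Cacna1d, at least 2.74-fold (2.14 ± 0.34, adjusted p = 0.00041) higher, and its beta subunit Cacnb2, at least 7.04-fold (3.20 ± 0.17, adjusted p = 3.1e-08) higher. Pkhd1l1, a stereocilia coat protein placed in this list, was at least 32.8-fold (5.58 ± 0.21, adjusted p = 3.1e-09) higher. Unc13b, a Munc13 priming factor, was lower (-1.08 ± 0.15, adjusted p = 0.00012). The list counts were 19 higher and 3 lower without HC B, 18 higher and 1 lower without DC A and on beadchip 1 alone, 18 higher and 2 lower without DC B and 20 higher and 3 lower under median scaling and in a fit of the 6 arrays. The list median was 0.81 over all 40 members on the array without the filter on dim probes and 1.01 in the authors' table. Rims2 was detected on only 1 of 2 DC arrays.

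Calcium buffers and pumps were higher as well. Of 24 calcium handling genes, 17 were higher in HC, 2 were lower and 5 did not pass, with a median difference of 1.39 (1.08 with members undetected in 1 gate set at their bound). The buffers parvalbumin, calretinin and oncomodulin were higher, Pvalb (58.6-fold), Calb2 (35.6-fold) and Ocm (at least 11.5-fold), and the channel-regulating calcium sensor Cabp2 by 61.7-fold. Ocm varied within HC, at 11.15, 11.20, 9.39 and 10.24 on the HC arrays and 5.83 and 6.36 on the DC arrays, with HC C the lowest of the HC arrays and still above both DC arrays. The pump of the endoplasmic reticulum Atp2a3 was 54.4-fold (5.77 ± 0.38, adjusted p = 2.3e-07) higher and the plasma membrane pump Atp2b2 3.02-fold (1.59 ± 0.27, adjusted p = 0.00061). Of the release channels, Itpr3 was 16.8-fold (4.07 ± 0.29, adjusted p = 4.2e-07) higher and Itpr1 4.12-fold (-2.04 ± 0.15, adjusted p = 7.5e-07) lower, while the exchangers Slc8a1 and Slc8a2 were higher by 9.19-fold and at least 7.36-fold, respectively. The list median was 0.67 over all 33 members on the array without the filter on dim probes. Cabp2 was detected on only 1 of 2 DC arrays.

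Among channels and efferent receptors, of 22 tested, 12 were higher in HC, 3 were lower and 7 did not pass, with a median difference of 1.83 (1.13 with members undetected in 1 gate set at their bound). The efferent receptor of hair cells is built from alpha 9 and alpha 10 subunits: Chrna9 had 13.25, 13.25, 13.07 and 13.26 on the HC arrays and 6.99 and 6.96 on the DC arrays and Chrna10 14.27, 14.39, 14.35 and 14.56 on the HC arrays and 8.30 and 7.10 on the DC arrays. In DC Chrna9 was near or below detection. Chrna10 lay above the lowest signal called detected on DC A (6.87) and near it on DC B (7.06). The gates did not overlap for either subunit, and Chrna9 and Chrna10 were higher in HC by 75.5-fold and 103-fold, respectively. The muscle-type subunit Chrna1 was 117-fold (6.87 ± 0.31, adjusted p = 9.5e-09) higher and Chrnb2 at least 9.28-fold (3.87 ± 0.24, adjusted p = 1.3e-07) higher, while the muscle-type Chrnb1 was lower (-0.80 ± 0.21, adjusted p = 0.010). Kcnn2, the SK channel that acts with the efferent receptor, was higher (2.02 ± 0.26, adjusted p = 9.0e-05), as were the potassium channels Kcna10 (at least 18-fold) and Kcnh2 (9.34-fold) and the cation channel Hcn2 (at least 5.60-fold). Slc26a5 (prestin), the outer hair cell motor, was detected on 2 HC arrays and on no DC array, at 7.57, 7.48, 6.22 and 6.52 on the HC arrays and 5.68 and 5.64 on the DC arrays, too near background for a fold. Chrnb1 missed the threshold without DC A (adjusted p = 0.096). Slc26a5 missed the threshold without HC A (0.060), without HC B (0.062), without DC A (0.11) and without DC B (0.12). The list counts were 12 higher and 1 lower without DC A. The list median was 0.13 over all 36 members on the array without the filter on dim probes and 0.91 in the authors' table. Chrna9 was detected on only 1 of 2 DC arrays.

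Of the 19 tested hair cell transcription factors, 10 were higher in HC, 4 were lower and 5 did not pass, with a median difference of 0.73 (0.69 with members undetected in 1 gate set at their bound). Pou4f3 and Gfi1, both needed for hair cell survival, were higher by at least 9.75-fold and at least 68-fold, respectively, and Myt1 (at least 18.5-fold), Barhl1 (at least 35.3-fold), Lhx3 (at least 14.8-fold) and Insm1 (at least 6.08-fold) were higher too. Atoh1 itself, whose reporter defined the gate, gave 6.43, 5.94, 7.74 and 7.21 on the HC arrays and 5.07 and 5.08 on the DC arrays. It was detected on 2 HC arrays and on no DC array, its difference was 1.75 ± 0.39, adjusted p = 0.0042, and the signal was too near background for a fold. Hes6, a bHLH factor described as a target of Atoh1, had 12.56, 12.82, 13.20 and 13.05 on the HC arrays and 11.21 and 11.01 on the DC arrays and was 3.48-fold (1.80 ± 0.21, adjusted p = 4.0e-05) higher. Ikzf2, Eya1 and Nr2f2 were lower, by at least 2.07-fold, 2.85-fold and 2.26-fold, respectively. Eya1 missed the threshold without HC A (adjusted p = 0.097), without HC B (0.068), without HC D (0.073), without DC A (0.23), without DC B (0.11), without the filter on dim probes (0.065) and with the mean over probes (0.065). Nr2f2 missed the threshold without DC A (0.083) and without DC B (0.13). The list counts were 9 higher and 1 lower without DC A and without DC B. Eya1 was detected on only 2 of 4 HC arrays.

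Promoters of some of these genes are printed because Atoh1 belongs to the class of factors that bind E-boxes and Rbpj is the DNA-binding partner of Notch. They are the 250 bases before the annotated start in RefSeq on GRCm38.p6, 5′ to 3′ on the strand of the gene. Only 1 motif is marked in each: capitals mark CAGCTG, an E-box, in the first 4 and TGGGAA or its reverse complement, the Rbpj core, in Hey2, and the last, Bmp4, the gene lowest in HC, holds no CAGCTG. The first 5 were chosen because they hold the letters. Bmp4 does hold CAGGTG, another E-box, which is not marked.
Cplx1 (chr5:108550028-108550277, minus strand): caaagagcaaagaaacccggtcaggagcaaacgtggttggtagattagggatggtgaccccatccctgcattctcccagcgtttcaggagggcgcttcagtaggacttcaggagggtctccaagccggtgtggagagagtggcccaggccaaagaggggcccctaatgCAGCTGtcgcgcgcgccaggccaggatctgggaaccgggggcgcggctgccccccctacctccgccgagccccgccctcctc
Chrna9 (chr5:65966874-65967123, plus strand): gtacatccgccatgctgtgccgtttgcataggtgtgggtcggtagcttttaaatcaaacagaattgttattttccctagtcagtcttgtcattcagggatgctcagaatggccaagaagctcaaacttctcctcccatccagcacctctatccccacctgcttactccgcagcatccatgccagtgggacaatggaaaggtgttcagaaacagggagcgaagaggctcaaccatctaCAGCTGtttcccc
Hes6, first start (chr1:91414039-91414288, minus strand): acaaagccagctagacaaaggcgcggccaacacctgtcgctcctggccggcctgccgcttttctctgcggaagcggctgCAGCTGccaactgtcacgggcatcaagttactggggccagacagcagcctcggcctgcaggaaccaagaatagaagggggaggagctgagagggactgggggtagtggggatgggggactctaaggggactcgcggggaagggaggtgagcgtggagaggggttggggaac
Hes6, second start (chr1:91413223-91413472, minus strand): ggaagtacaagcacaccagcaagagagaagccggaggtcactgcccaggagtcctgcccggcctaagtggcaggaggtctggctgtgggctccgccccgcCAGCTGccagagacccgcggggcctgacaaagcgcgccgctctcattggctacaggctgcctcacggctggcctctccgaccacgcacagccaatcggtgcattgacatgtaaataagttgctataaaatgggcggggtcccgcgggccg
Hey2 (chr10:30842784-30843033, minus strand): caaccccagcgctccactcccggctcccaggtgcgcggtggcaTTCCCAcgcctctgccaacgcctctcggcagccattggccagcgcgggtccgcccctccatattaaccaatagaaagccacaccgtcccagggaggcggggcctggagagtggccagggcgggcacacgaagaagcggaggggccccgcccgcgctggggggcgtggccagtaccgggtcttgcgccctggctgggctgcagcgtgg
Bmp4 (chr14:46390670-46390919, minus strand): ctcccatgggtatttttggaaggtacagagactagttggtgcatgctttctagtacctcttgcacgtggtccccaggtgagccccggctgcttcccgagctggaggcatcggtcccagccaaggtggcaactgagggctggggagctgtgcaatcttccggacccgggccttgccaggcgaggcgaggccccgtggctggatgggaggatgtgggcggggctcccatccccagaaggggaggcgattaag

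Searched on both strands, CAGCTG stood in the promoters of 2 of the 10 genes with a promoter entry among the 15 highest (20%), in 3 of 11 among the 15 lowest (27.3%) and in 14.7% of all 27025 genes. TGGGAA stood in 6 of 10 (60%), 1 of 11 (9.09%) and 24.1%. In all 7 motifs were searched, and the choice to mark these followed a look at the matches. The E-boxes CAGATG (20%, 27.3% and 16.3%) and CAGGTG (40%, 36.4% and 19.4%) and GGCGCC, a Smad-type sequence (10%, 9.09% and 10.8%), were spread more evenly. TGTGGGAA, which contains TGGGAA, and the Tcf-type CTTTGAT had no match at either end (1.71% and 3.72% of all genes). These are counts of letters in a few promoters with no test.

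Cilium genes belonged to the HC side. Of 33 tested kinocilium and basal body genes, 22 were higher in HC, 0 were lower and 11 did not pass, with a median difference of 0.86 (0.87 with members undetected in 1 gate set at their bound). The dynein light chain Dynlrb2 was 24.7-fold (4.63 ± 0.22, adjusted p = 1.7e-08) higher, and the axonemal proteins Mns1 (14.7-fold), Ccdc39 (at least 3.31-fold), Rsph1 (5.23-fold) and Rsph9 (3.14-fold) and intraflagellar transport proteins Ttc21a (at least 4.89-fold), Ift172 (3.33-fold) and Ift80 (2.89-fold) were higher. Of the Bardet-Biedl proteins Bbs1 (at least 2.85-fold), Arl6 (3.57-fold) and Bbs5 (2.42-fold) were higher. Mitochondrial respiratory chain genes differed less: of 36, 12 were higher in HC, 1 was lower and 23 did not pass, with a median difference of 0.38. The mitochondrial creatine kinase Ckmt1 was 7.56-fold (2.92 ± 0.17, adjusted p = 7.0e-08) higher, and Ppargc1a, a coactivator of mitochondrial genes, was the 1 lower member, by at least 3.35-fold (-2.50 ± 0.50, adjusted p = 0.0021). Of 22 cytosolic ribosomal protein genes, 0 were higher in HC, 2 were lower and 20 did not pass, with a median difference of -0.06. Ift80 missed the threshold on beadchip 1 alone (adjusted p = 0.062). The respiratory chain counts were 4 higher and 1 lower without DC A and under median scaling, 6 higher and 1 lower without DC B and 5 higher and 1 lower on beadchip 1 alone.

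**Figure D2:**
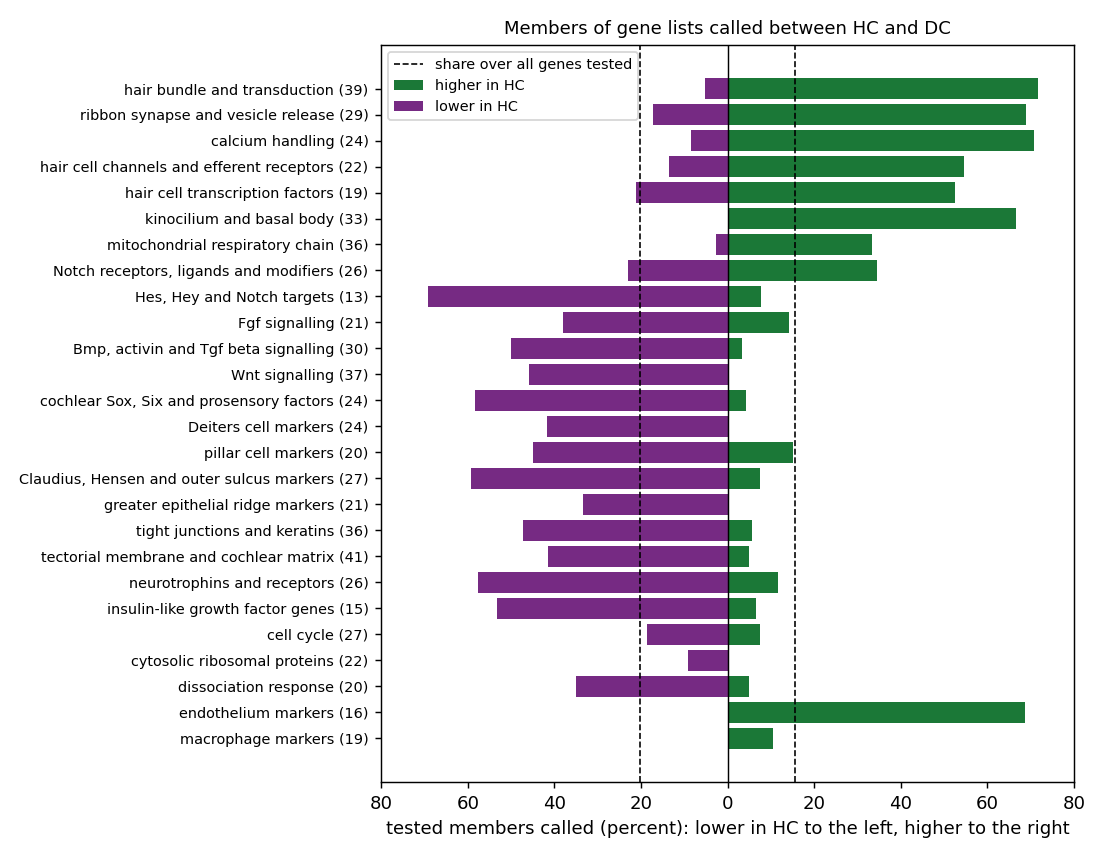
Percent of the tested members of each gene list called higher in HC (green, to the right) and lower (purple, to the left), with the number tested in parentheses; dashed lines mark the shares over all 10088 genes, 15.6% and 20.3%. Bundle, synapse, calcium, channel and cilium lists extend past the right line, and Wnt, Bmp, lateral epithelium and neurotrophin lists past the left one.

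Most lateral epithelial genes that passed were lower in HC. Of 27 tested Claudius, Hensen and outer sulcus markers, 2 were higher in HC, 16 were lower and 9 did not pass, with a median difference of -1.19. After Bmp4, Fst and Fbln2, the water channel Aqp4 gave 9.62, 10.44, 9.02 and 7.94 on the HC arrays and 12.47 and 11.98 on the DC arrays, and its HC values ranged widely, with HC D the lowest. The anion exchanger Slc26a4 (pendrin) had 8.76, 9.36, 8.62 and 8.13 on the HC arrays and 10.61 and 10.56 on the DC arrays and was 3.64-fold (-1.86 ± 0.29, adjusted p = 0.00041) lower in HC, with no overlap. Meis2 (at least 3.58-fold), Igf1 (3.50-fold), Smad6 (2.68-fold), Otoa (2.68-fold) and Lmo3 (2.62-fold) were lower too. Of the fixed markers of these cells, Gata3 gave -0.34 ± 0.24, adjusted p = 0.31 and Sparcl1 -0.10 ± 0.19, adjusted p = 0.73. Claudin 14 (Cldn14), a tight junction protein of the organ of Corti, was 10.4-fold (3.38 ± 0.21, adjusted p = 1.6e-07) higher in HC and Gpx2, a glutathione peroxidase, 3.47-fold (1.79 ± 0.18, adjusted p = 9.2e-06) higher. Aqp4 missed the threshold without DC A (adjusted p = 0.079).

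Otx1, Otx2, Ttr and Apoe were lower in HC too. They form no list of their own, and Ttr was chosen after its values were seen. Otx2, a homeobox factor, gave 8.27, 8.59, 7.84 and 6.14 on the HC arrays and 10.46 and 10.38 on the DC arrays, and Otx1 gave 7.98, 8.71, 7.60 and 7.30 on the HC arrays and 10.56 and 10.74 on the DC arrays. Ttr, the thyroxine carrier transthyretin, gave 11.42, 11.20, 10.64 and 9.30 on the HC arrays and 13.41 and 13.30 on the DC arrays. HC D was the lowest HC array for all 3 genes, and the gates did not overlap. The differences were -2.75 ± 0.31, adjusted p = 3.4e-05 for Otx1, -2.71 ± 0.54, adjusted p = 0.0022 for Otx2 and -2.71 ± 0.48, adjusted p = 0.00090 for Ttr, and the lipid carrier Apoe was 7.22-fold (-2.85 ± 0.23, adjusted p = 1.3e-06) lower in HC. Against GER, which shares the DC arrays in this comparison, the same genes gave GER minus DC differences of -2.05 ± 0.33, adjusted p = 0.0035 for Otx1, -2.23 ± 0.57, adjusted p = 0.053 for Otx2 and -2.04 ± 0.50, adjusted p = 0.044 for Ttr. Their part in the DC profile was not tested. Otx1 missed the threshold in GER minus DC without DC B (adjusted p = 0.059). Ttr missed the threshold in GER minus DC without HC C (adjusted p = 0.055), without DC A (adjusted p = 0.23), without DC B (adjusted p = 0.23), without the filter on dim probes (adjusted p = 0.060), with trend and robust eBayes (adjusted p = 0.068) and with the beadchip as a block (adjusted p = 0.077).

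Deiters and pillar cell genes were lower in HC by less. Of 24 tested Deiters cell markers, 0 were higher in HC, 10 were lower and 14 did not pass, with a median difference of -0.86 (-1.02 with members undetected in 1 gate set at their bound), and of 20 pillar cell markers, 3 were higher in HC, 9 were lower and 8 did not pass, with a median difference of -0.91. Fgfr3, a receptor of Deiters and pillar cells, had log2 levels of 8.62, 9.10, 9.52 and 7.63 on HC replicates A to D and 9.95 and 9.99 on DC replicates A and B and did not pass (-1.25 ± 0.49, adjusted p = 0.064), nor did the homeobox factor Prox1 (-1.18 ± 0.44, adjusted p = 0.057), at 9.70, 9.07, 9.47 and 9.74 on the HC arrays and 10.46 and 10.89 on the DC arrays. Hey2, a Notch and Fgf effector of these cells, had 9.53, 9.77, 10.01 and 9.48 on the HC arrays and 11.26 and 11.17 on the DC arrays and was 2.87-fold (-1.52 ± 0.18, adjusted p = 4.7e-05) lower. The Ets factors Etv4 and Etv5, read as targets of Fgf signalling, were lower by 4.43-fold and 2.99-fold, respectively, Bace2 by 2.66-fold, Igfbpl1 by 5.33-fold and the cell cycle inhibitor Cdkn1b by at least 2.26-fold. Not called were Lgr5 (-0.69 ± 0.26, adjusted p = 0.060), Hes5 (-0.23 ± 0.39, adjusted p = 0.68), Jag1 (-0.18 ± 0.33, adjusted p = 0.72) and Glul (-0.37 ± 0.23, adjusted p = 0.24). The ephrin Efna5 (3.75-fold) and the endothelin receptor Ednrb (2.08-fold), both in the pillar list, were higher in HC. Etv5 missed the threshold without DC A (adjusted p = 0.055) and without DC B (0.064). Bace2 missed the threshold without DC B (0.064) and on beadchip 1 alone (0.15). Ednrb missed the threshold without DC A (0.092) and under median scaling (0.077). The Deiters median was -0.37 over all 31 members on the array without the filter on dim probes. The pillar counts were 1 higher and 6 lower without DC A, 2 higher and 4 lower without DC B and 1 higher and 11 lower under median scaling. The pillar median was -0.51 on beadchip 1 alone. Etv5 was detected on only 3 of 4 HC arrays. Fgfr3 passed without HC C (-1.52, adjusted p = 0.027), on beadchip 1 alone (-1.35, 0.014), in the authors' table (-0.91, 0.0086), under median scaling (-1.29, 0.035), with trend and robust eBayes (-1.25, 0.046) and with array weights (-1.06, 0.035). Prox1 passed in the authors' table (-0.99, adjusted p = 0.0011), under median scaling (-1.18, 0.045), with the mean over probes (-1.29, 0.0022), in a fit of the 6 arrays (-1.18, 0.0094), with trend and robust eBayes (-1.18, 0.037) and with array weights (-1.31, 0.018). Lgr5 passed without HC B (-0.80, adjusted p = 0.044), without HC C (-0.80, 0.040), on beadchip 1 alone (-1.28, 0.014), in the authors' table (-0.57, 0.027) and with array weights (-0.61, 0.047).

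Many of these supporting cell genes were higher in HC than in GER. Npy, a pillar cell peptide, gave 14.14, 13.62, 13.16 and 13.11 on the HC arrays and 14.37 and 14.69 on the DC arrays, and 10.49, 10.59 and 9.90 on the GER arrays. HC lay between GER and DC and nearer to DC, with differences of -1.02 ± 0.31, adjusted p = 0.021 for HC minus DC, 3.18 ± 0.27, adjusted p = 1.8e-06 for HC minus GER and -4.21 ± 0.32, adjusted p = 4.1e-05 for GER minus DC. Smagp gave 11.86, 11.54, 10.92 and 10.96 on the HC arrays and 12.48 and 12.66 on the DC arrays, and 9.46, 10.07 and 9.21 on the GER arrays; S100b, a calcium-binding protein of pillar and Deiters cells, gave 8.39, 8.23, 7.56 and 7.96 on the HC arrays and 8.67 and 9.36 on the DC arrays, and 6.10, 6.49 and 6.39 on the GER arrays. For Prox1 the GER values were 7.36, 6.08 and 7.46 and for Fgfr3 7.20, 7.09 and 5.87. On the 3 GER arrays S100b was detected on 0, Smagp on 3, Prox1 on 2 and Fgfr3 on 0. Across the Deiters list 12 genes were higher and 4 lower in HC than in GER, against 18.5% and 24% of all genes, and for the pillar list the counts were 14 and 2. In GER minus DC, 10 Deiters and 11 pillar genes were lower and none higher, against 3.27% and 0.892% of all genes. These comparisons share arrays and are given side by side. Whether the HC gate held supporting cells was not tested. Npy missed the threshold without DC A (adjusted p = 0.060), without DC B (0.16), on beadchip 1 alone (0.26) and with the beadchip as a block (0.088). Smagp missed the threshold without DC B (0.053) and on beadchip 1 alone (0.12). S100b missed the threshold without DC B (0.20) and on beadchip 1 alone (0.26).

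**Figure D3:**
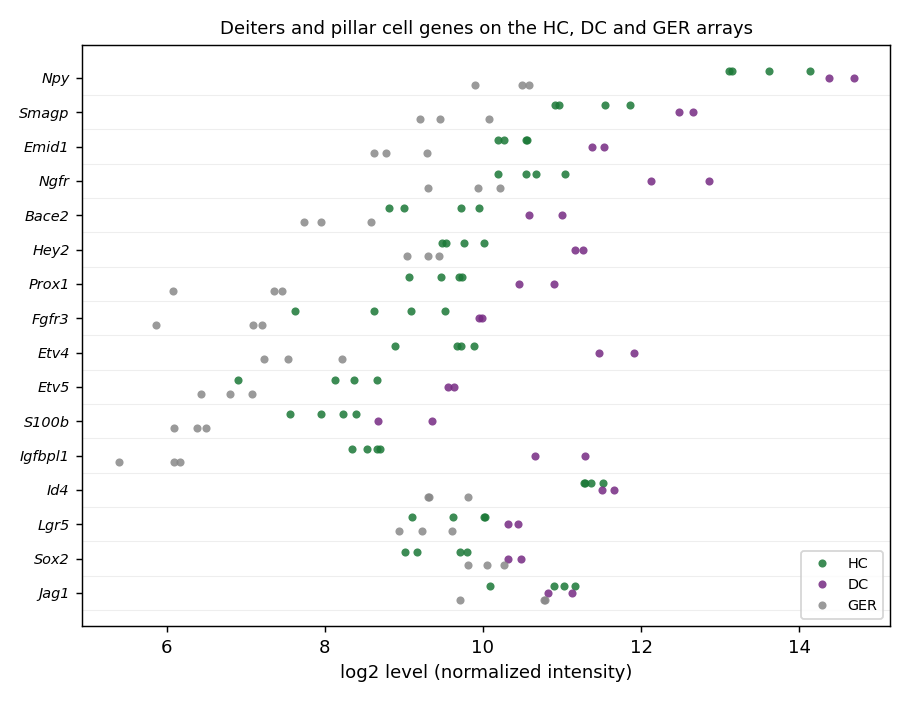
Log2 level of 16 Deiters and pillar cell genes on each array: green for 4 HC, purple for 2 DC and grey for 3 GER arrays. The HC points of Npy, Prox1 and Fgfr3 lie between the GER and the DC points.

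Some hair cell transcripts were detected in DC. Calb2 gave 10.03 and 9.34 on the DC arrays and 7.63, 8.04 and 7.71 on the GER arrays, a GER minus DC difference of -1.89 ± 0.21, adjusted p = 0.00029. Otof was detected on both DC arrays and on 1 of 3 GER arrays, with a fitted difference of -1.44 ± 0.29, adjusted p = 0.014. Atp2a3, at 9.27 and 8.60, and Cdh23, at 8.15 and 8.36, were detected on both DC arrays and on no GER array. Other hair cell markers were undetected in DC, among them Myo7a. Of the 39 bundle genes 3 were lower and 1 higher in GER than in DC. Whether hair cell RNA was present in the DC gate was not tested. Of the genes for the sort markers, Ngfr (CD271) gave 10.68, 10.54, 10.19 and 11.04 on the HC arrays and 12.13 and 12.86 on the DC arrays, and was 3.68-fold (-1.88 ± 0.33, adjusted p = 0.00094) lower in HC. Mcam (CD146) gave 10.47, 10.78, 10.75 and 11.51 on the HC arrays and 10.08 and 10.16 on the DC arrays, a difference of 0.76 ± 0.25, adjusted p = 0.031, and GER minus DC for Mcam was 1.59 ± 0.26, adjusted p = 0.0036, in the direction of the gate. Ngfr was the 1 sort marker gene called lower in GER than in DC, although both gates were low for CD271. CD326 was not analysed here. Markers of the greater epithelial ridge gave 0 higher and 7 lower of 21, among the lower ones the protocadherin Pcdh17 (8.65-fold) and the sulfatase Sulf1 (3.28-fold), while Crabp1 gave -1.47 ± 0.80, adjusted p = 0.18. The ridge marker median was -0.49 with the mean over probes. Fst, named with the lateral genes above, was also fixed as a ridge marker. It was called lower in GER than in DC, a call that did not hold without DC B. Mcam missed the threshold without DC A (adjusted p = 0.16), without DC B (0.11), on beadchip 1 alone (0.36), under median scaling (0.073), in a fit of the 6 arrays (0.081) and with the beadchip as a block (0.15). Otof missed the threshold in GER minus DC without DC A (adjusted p = 0.19), on beadchip 1 alone (adjusted p = 0.16) and with the mean over probes (adjusted p = 0.21). Crabp1 passed on beadchip 1 alone (-3.77, adjusted p = 0.0013).

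Several Notch ligands were higher in HC and several Notch effectors lower. In the organ of Corti hair cells present Notch ligands to the supporting cells around them. Of 26 tested receptors, ligands and modifiers, 9 were higher in HC, 6 were lower and 11 did not pass, with a median difference of -0.06 (0.02 with members undetected in 1 gate set at their bound). Their shares were 34.6% and 23.1%, against 15.6% and 20.3% over all genes. The receptor and ligand counts were 9 higher and 1 lower without DC A and on beadchip 1 alone, 9 higher and 2 lower without DC B and 9 higher and 3 lower under median scaling and with the beadchip as a block. Jag2 had log2 levels of 10.43, 10.82, 11.53 and 10.57 on HC replicates A to D and 7.71 and 7.36 on DC replicates A and B. The HC and DC arrays did not overlap, and Jag2 was 9.88-fold (3.31 ± 0.28, adjusted p = 2.7e-06) higher. The ligands Dll1 and Dll3 and the Notch-binding protein Dner were higher by at least 3.06-fold, at least 1.01-fold and 7.18-fold, respectively, and the glycosyltransferase Mfng, which modifies Notch, by 26.8-fold. Jag1, the ligand of supporting cells, gave -0.18 ± 0.33, adjusted p = 0.72. The receptors Notch1 (-0.80 ± 0.29) and Notch3 (-0.79 ± 0.17) were lower in HC. Of 13 Hes, Hey and other target genes, 1 was higher in HC, 9 were lower and 3 did not pass, with a median difference of -0.81: Hes1 (2.73-fold), Hey1 (1.74-fold), Hey2 (2.87-fold) and Nrarp (1.42-fold) were lower, and Hes5, a Deiters cell effector, gave 10.01, 9.78, 10.10 and 10.04 on the HC arrays and 9.88 and 10.56 on the DC arrays with a difference of -0.23 ± 0.39, adjusted p = 0.68. Hes6 was the 1 higher member. Notch1 missed the threshold without HC A (adjusted p = 0.058), without HC C (0.072), without HC D (0.065), without DC A (0.23), without DC B (0.13), on beadchip 1 alone (0.084), without the filter on dim probes (0.074), in a fit of the 6 arrays (0.099) and with the beadchip as a block (0.21). Notch3 missed the threshold without DC B (0.062). Hey1 missed the threshold without DC B (0.050). Nrarp missed the threshold without DC A (0.079), without DC B (0.14), on beadchip 1 alone (0.064), under median scaling (0.059) and in a fit of the 6 arrays (0.063). The target counts were 1 higher and 5 lower without DC B and on beadchip 1 alone.

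Fgf8 was higher in HC, and Dusp6, Fgf7 and Fgfr1 were lower. Of 21 Fgf genes, 3 were higher in HC, 8 were lower and 10 did not pass, with a median difference of -0.60 (-0.47 with members undetected in 1 gate set at their bound). Their shares were 14.3% and 38.1%, against 15.6% and 20.3% over all genes. The Fgf counts were 3 higher and 2 lower without DC A, 3 higher and 4 lower without DC B and 4 higher and 5 lower with the beadchip as a block. The Fgf median was -0.30 over all 33 members on the array without the filter on dim probes, -0.23 on beadchip 1 alone, -0.34 in the authors' table and -0.35 with the beadchip as a block. Fgf8, the ligand of inner hair cells that acts on pillar cells, had 13.20, 12.87, 12.77 and 12.86 on the HC arrays and 7.46 and 6.59 on the DC arrays and was 59.7-fold (5.90 ± 0.25, adjusted p = 6.6e-09) higher in HC. Fgf21 was at least 6.91-fold (3.09 ± 0.29, adjusted p = 6.2e-06) higher, while Fgf7 and Fgfr1 were lower by at least 1.38-fold and 2.72-fold, respectively, and the feedback phosphatase Dusp6 was lower by 1.63-fold. Bmp genes lay mostly below: of 30, 1 was higher in HC, 15 were lower and 14 did not pass, with a median difference of -0.66 (-0.73 with members undetected in 1 gate set at their bound). The ligands Bmp6 and Bmp7 and the activin subunit Inhbb were lower by 6.47-fold, 3.36-fold and at least 1.94-fold, respectively, and so were the inhibitory Smad6 (2.68-fold) and the target genes Id1 (2.39-fold), Id2 (2.09-fold) and Id3 (2.11-fold). The 1 higher member was the latent Tgf beta binding protein Ltbp1 (0.82 ± 0.27, adjusted p = 0.032). Fgfr1 missed the threshold without HC A (adjusted p = 0.072), without HC D (0.064), without DC A (0.28) and in a fit of the 6 arrays (0.082). Dusp6 missed the threshold without HC B (0.051), without HC C (0.058), without DC A (0.14), without DC B (0.11), on beadchip 1 alone (0.14), under median scaling (0.069) and with the beadchip as a block (0.13). Id1 missed the threshold on beadchip 1 alone (0.073). Id2 missed the threshold without DC B (0.066) and on beadchip 1 alone (0.084). Id3 missed the threshold without DC A (0.059). Ltbp1 missed the threshold without HC B (0.074), without HC C (0.064), without DC A (0.090), without DC B (0.19), on beadchip 1 alone (0.44) and with the beadchip as a block (0.096). Fgf8 was detected on only 1 of 2 DC arrays. Fgfr1 was detected on only 2 of 4 HC arrays. Bmp6 was detected on only 3 of 4 HC arrays.

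No tested Wnt gene was called higher in HC. Of 37, 0 were higher in HC, 17 were lower and 20 did not pass, with a median difference of -0.74 (-0.85 with members undetected in 1 gate set at their bound). The ligands Wnt4 (at least 3.22-fold), Wnt5a (3.18-fold) and Wnt7a (2.0-fold) and the R-spondins, which amplify the signal, Rspo2 (5.66-fold) and Rspo3 (at least 1.97-fold) were lower in HC. The secreted inhibitors Frzb (3.93-fold), Sfrp1 (2.28-fold) and Sfrp2 (2.47-fold) and the receptors Fzd2 (2.68-fold), Fzd7 (1.87-fold) and Fzd8 (2.41-fold) were lower as well. Axin2, a general target of the pathway, was 2.64-fold (-1.40 ± 0.25, adjusted p = 0.0010) lower, and Lgr5, the R-spondin receptor of Deiters cells, gave 9.11, 10.02, 10.02 and 9.62 on the HC arrays and 10.32 and 10.45 on the DC arrays and did not pass. Wnt4 had 6.75, 7.05, 6.34 and 5.95 on the HC arrays and 8.77 and 8.84 on the DC arrays, with no overlap between the gates. Wnt7a missed the threshold without DC B (adjusted p = 0.072) and on beadchip 1 alone (0.17). Sfrp2 missed the threshold without DC A (0.065). Fzd8 missed the threshold without DC A (0.14). The list median was -0.37 over all 52 members on the array without the filter on dim probes and -0.41 in the authors' table. Fzd8 was detected on only 1 of 4 HC arrays. Rspo2 was detected on only 2 of 4 HC arrays.

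**Figure D4:**
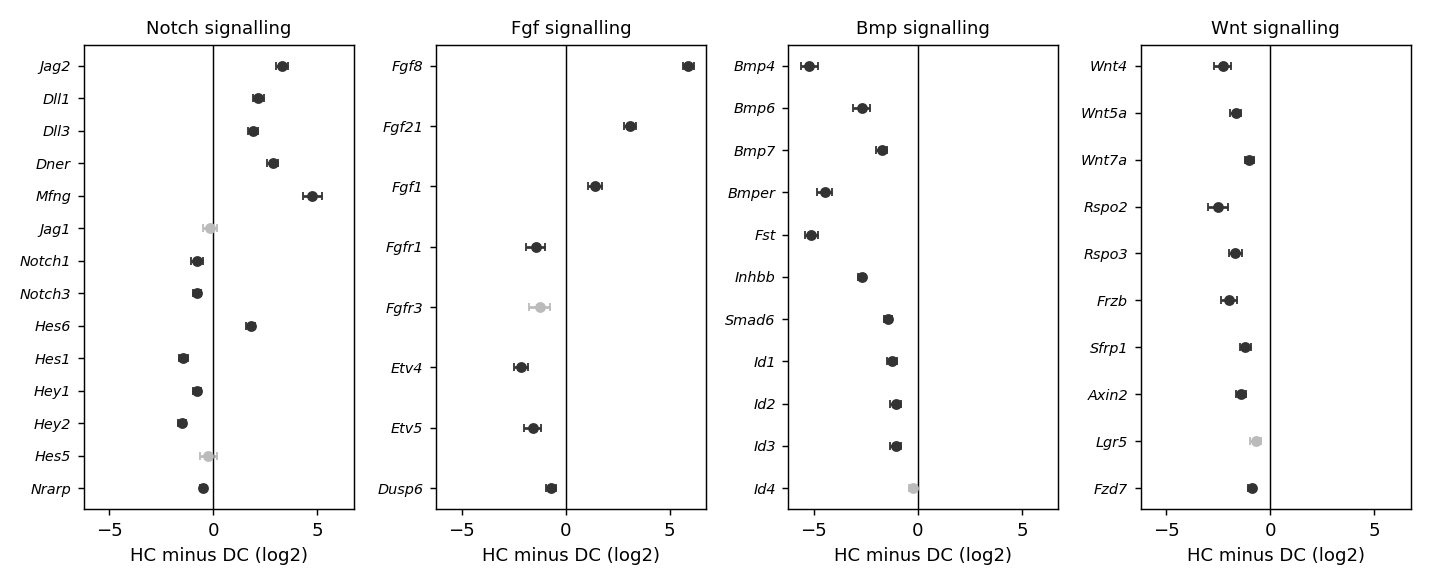
HC minus DC differences (log2) of genes of 4 pathways, with bars of ± 1 standard error; dark points passed the adjusted p of 0.05 and light points did not, and differences of genes undetected in a gate are fitted values. Jag2 and Fgf8 lie to the right, and every Wnt gene shown that passed lies to the left.

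Factors of the cochlear epithelium were mostly lower in HC. Of 24 Sox and other prosensory factors, 1 was higher in HC, 14 were lower and 9 did not pass, with a median difference of -0.85 (-0.94 with members undetected in 1 gate set at their bound). Irx2, an Iroquois factor, was the 1 higher member, with 12.12, 12.16, 12.41 and 12.01 on the HC arrays and 8.68 and 8.60 on the DC arrays, 11.6-fold (3.53 ± 0.27, adjusted p = 1.0e-06) above DC with no overlap, while Irx3 and Irx5 were lower by 1.86-fold and 1.71-fold, respectively. Gata2 had 11.23, 12.19, 12.34 and 11.60 on the HC arrays and 14.14 and 14.24 on the DC arrays and was 5.10-fold (-2.35 ± 0.28, adjusted p = 4.8e-05) lower, and Tbx1 (3.48-fold), Meis1 (2.82-fold) and Lmx1a (2.99-fold) were lower. Sox2 and Sox9, kept by supporting cells, were lower by 1.97-fold and 1.76-fold, respectively. Irx3 missed the threshold without DC B (adjusted p = 0.090). Irx5 missed the threshold without DC B (0.11). Lmx1a missed the threshold without DC A (0.073), without DC B (0.081), on beadchip 1 alone (0.098) and with the beadchip as a block (0.070). Sox2 missed the threshold without DC A (0.085). Sox9 missed the threshold without DC B (0.068) and on beadchip 1 alone (0.054). The list counts were 2 higher and 9 lower without DC A and 1 higher and 8 lower without DC B. The list median was -0.44 over all 31 members on the array without the filter on dim probes. In planar polarity, of 20 genes, 5 were higher in HC, 4 were lower and 11 did not pass, with a median difference of -0.13 (-0.01 with members undetected in 1 gate set at their bound). The polarity shares were 25% and 20%, against 15.6% and 20.3% over all genes. The polarity counts were 5 higher and 2 lower without HC C, 5 higher and 1 lower without DC A, 4 higher and 1 lower without DC B and 4 higher and 2 lower on beadchip 1 alone. Insc and the spindle partner Gpsm2 were higher by at least 66.4-fold and 3.42-fold, respectively, and the cadherin Celsr3 by at least 34.3-fold, while the core proteins gave -0.55 ± 0.17, adjusted p = 0.025 for Vangl2 and -0.45 ± 0.21, adjusted p = 0.12 for Celsr1. Vangl2 missed the threshold without HC B (adjusted p = 0.054), without HC C (0.054), without DC A (0.17), without DC B (0.079), on beadchip 1 alone (0.10), under median scaling (0.11) and in a fit of the 6 arrays (0.075). Tbx1 was detected on only 2 of 4 HC arrays.

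Keratins and several claudins were lower in HC. Of 36 tight junction and keratin genes, 2 were higher in HC, 17 were lower and 17 did not pass, with a median difference of -0.89 (-0.95 with members undetected in 1 gate set at their bound). The keratins Krt23 (6.93-fold), Krt19 (4.52-fold), Krt18 (3.46-fold) and Krt8 (2.16-fold) and the claudins Cldn10 (5.11-fold), Cldn4 (4.06-fold) and Cldn3 (2.49-fold) were lower in HC, with occludin (Ocln, 2.39-fold). The 2 higher members were Cldn14 and the endothelial claudin Cldn5. Of 9 gap junction genes, 2 were higher in HC, 1 was lower and 6 did not pass, with a median difference of 0.13: the neuronal connexin Gjd2 was at least 1.85-fold (2.51 ± 0.23, adjusted p = 4.8e-06) higher, and the main cochlear connexins did not pass, at 0.13 ± 0.18, adjusted p = 0.64 for Gjb2 and 0.47 ± 0.19, adjusted p = 0.073 for Gjb6. Of 19 cadherins and nectins, 3 were higher in HC, 4 were lower and 12 did not pass, with a median difference of -0.06 (-0.14 with members undetected in 1 gate set at their bound). The cadherin shares, 15.8% and 21.1%, were near the 15.6% and 20.3% over all genes. The gap junction shares were 22.2% and 11.1%. The cadherin counts were 5 higher and 6 lower with array weights. Nectin1 of hair cells was at least 1.45-fold (1.35 ± 0.26, adjusted p = 0.0015) higher and Nectin3 of supporting cells 1.88-fold (-0.91 ± 0.18, adjusted p = 0.0022) lower, the pair that binds across the hair cell to supporting cell border. The tight junction median was -0.52 over all 41 members on the array without the filter on dim probes and -0.57 in the authors' table. Gjb6 passed without HC C (0.56, adjusted p = 0.039), in the authors' table (0.46, 0.039), with trend and robust eBayes (0.47, 0.027) and with array weights (0.41, 0.041).

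Of 41 matrix genes, 2 were higher in HC, 17 were lower and 22 did not pass, with a median difference of -0.67. The collagen-modifying enzymes P4ha2 and Plod2 were lower by 8.62-fold and 3.04-fold, respectively, and the collagens Col6a2 (at least 1.83-fold), Col9a1 (2.54-fold) and Col9a3 (at least 1.40-fold) were lower. Of 26 neurotrophin and guidance genes, 3 were higher in HC, 15 were lower and 8 did not pass, with a median difference of -0.79 (-0.83 with members undetected in 1 gate set at their bound). Bdnf, the neurotrophin that hair cells supply to spiral ganglion neurons, had 12.09, 11.96, 12.28 and 12.02 on the HC arrays and 7.66 and 7.06 on the DC arrays and was 26.5-fold (4.73 ± 0.21, adjusted p = 9.1e-09) higher, with no overlap. The size depended on the probe, as the other Bdnf probe gave a difference of 1.32. Ntf3, the other cochlear neurotrophin, gave 8.62, 8.67, 8.61 and 8.37 on the HC arrays and 8.90 and 8.78 on the DC arrays and did not pass (-0.27 ± 0.22, adjusted p = 0.39). The glial cell line-derived family split, with Artn 3.77-fold higher and Nrtn at least 1.21-fold lower, and the guidance ligands Slit2 (4.82-fold), Slit3 (3.31-fold), Sema3a (3.09-fold), Sema3f (3.03-fold) and Efnb2 (2.93-fold) were lower in HC. Of 15 insulin-like growth factor genes, 1 was higher in HC, 8 were lower and 6 did not pass, with a median difference of -0.86, with Igfbp4 8.53-fold and Igf1 3.50-fold lower and Igfbp7 5.03-fold higher. Col9a1 missed the threshold without DC A (adjusted p = 0.11). Efnb2 missed the threshold without DC B (0.054) and on beadchip 1 alone (0.19). Igfbp7 missed the threshold without DC A (0.054) and without DC B (0.076). The matrix counts were 0 higher and 8 lower without DC A and 0 higher and 10 lower without DC B. The neurotrophin and guidance median was -0.37 over all 39 members on the array without the filter on dim probes and -0.48 in the authors' table. The insulin-like growth factor counts were 0 higher and 5 lower without DC A and without DC B. Slit3 was detected on only 2 of 4 HC arrays.

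Cell cycle inhibitors differed from one another. Cdkn2d (p19Ink4d), which keeps hair cells out of the cycle, had 10.82, 10.28, 10.71 and 10.22 on the HC arrays and 8.12 and 8.21 on the DC arrays and was 5.07-fold (2.34 ± 0.24, adjusted p = 1.2e-05) higher in HC. Cdkn1b (p27Kip1), the inhibitor of supporting cells, gave 6.97, 6.94, 6.09 and 5.68 on the HC arrays and 7.98 and 8.61 on the DC arrays, below detection on all 4 HC arrays, with a difference of -1.87 ± 0.39, adjusted p = 0.0029. The other inhibitors did not pass, at -0.42 ± 0.25, adjusted p = 0.21 for Cdkn1a and -0.51 ± 0.21, adjusted p = 0.077 for Cdkn1c. Of the 9 inhibitors and Rb family genes, 2 were higher in HC, 2 were lower and 5 did not pass, with a median difference of 0.14 (-0.14 with members undetected in 1 gate set at their bound), Rb1 at 0.80 ± 0.23, adjusted p = 0.017 and Rbl1 at -1.18 ± 0.38, adjusted p = 0.032. Of 27 cell cycle genes, 2 were higher in HC, 5 were lower and 20 did not pass, with a median difference of 0.11 (-0.22 with members undetected in 1 gate set at their bound); Plk1 gave 8.96, 8.67, 8.48 and 9.38 on the HC arrays and 6.24 and 6.63 on the DC arrays, and the cyclins Ccnd1 and Ccnd2 were lower by 1.71-fold and 2.88-fold, respectively. The cell cycle counts were 1 higher and 3 lower without HC A, without HC B, in a fit of the 6 arrays and with the beadchip as a block, 4 higher and 3 lower without HC C, 1 higher and 9 lower without HC D, 1 higher and 2 lower without DC A, 2 higher and 1 lower without DC B and 2 higher and 3 lower on beadchip 1 alone. The cell cycle shares were 7.41% and 18.5%, against 15.6% and 20.3% over all genes. The shares of the inhibitors and Rb family were 22.2% and 22.2%. The cell cycle score was -0.17, -0.14, -0.45 and 0.90 on HC A to D and -0.11 and -0.03 on DC A and B, with HC D the highest. Of 19 glial metabolism genes, 2 were higher in HC, 5 were lower and 12 did not pass, with a median difference of -0.37 (-0.33 with members undetected in 1 gate set at their bound), with the GABA transporter Slc6a11 at least 2.42-fold and the glucose transporter Slc2a3 at least 1.48-fold higher. The glial counts were 2 higher and 3 lower without DC A and on beadchip 1 alone, 2 higher and 8 lower in the authors' table and with trend and robust eBayes and 3 higher and 8 lower with array weights. The glial median was -0.22 over all 28 members on the array without the filter on dim probes and -0.24 without DC B. The glial shares were 10.5% and 26.3%, not far from those over all genes. Among 35 tubulin, actin and microtubule genes, 5 were higher in HC, 7 were lower and 23 did not pass, with a median difference of -0.13, with Stmn3 at least 4.64-fold and Dpysl3 7.75-fold higher. The tubulin shares, 14.3% and 20%, were near those over all genes. The tubulin counts were 3 higher and 5 lower without DC A, 4 higher and 2 lower without DC B and 6 higher and 4 lower in a fit of the 6 arrays and with the beadchip as a block. Rb1 missed the threshold without DC A (adjusted p = 0.064), without DC B (0.12), on beadchip 1 alone (0.12) and with the beadchip as a block (0.060). Rbl1 missed the threshold without DC A (0.28) and in a fit of the 6 arrays (0.081). Ccnd1 missed the threshold without DC B (0.14), on beadchip 1 alone (0.22), under median scaling (0.056) and with the beadchip as a block (0.084). Ccnd2 missed the threshold without HC A (0.069), without HC B (0.058), without HC C (0.063), without DC A (0.20), without DC B (0.072) and in a fit of the 6 arrays (0.098). Ccnd2 was detected on only 2 of 4 HC arrays. Cdkn1c passed without HC D (-0.64, adjusted p = 0.024), on beadchip 1 alone (-0.93, 0.023), in the authors' table (-0.51, 0.040), with trend and robust eBayes (-0.51, 0.030), with array weights (-0.60, 0.013) and with the beadchip as a block (-0.70, 0.039).

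Of the endothelium, macrophage and mesenchyme lists, only the endothelium list was called beyond the shares over all genes, 15.6% higher and 20.3% lower. Of 16 endothelium markers, 11 were higher in HC, 0 were lower and 5 did not pass, with a median difference of 1.70 (1.21 with members undetected in 1 gate set at their bound). Cldn5 gave log2 levels of 11.36, 10.83, 8.52 and 11.84 on HC replicates A to D and 6.56 and 6.83 on DC replicates A and B, and Esam 10.68, 10.67, 8.20 and 11.15 on the HC arrays and 5.81 and 5.72 on the DC arrays. Both were below detection in DC, and HC C was the lowest and HC D the highest HC array for each. The list score centres each gene's log2 level on its mean of the 6 arrays and averages over the genes, and it was 0.88, 0.91, -0.70 and 1.30 on HC A to D and -1.13 and -1.26 on DC A and B. The list counts were 6 higher and 0 lower without DC A and 5 higher and 0 lower without DC B and with the beadchip as a block. The list median was 0.96 in the authors' table. Of 19 macrophage markers, 2 were higher in HC, 0 were lower and 17 did not pass, with a median difference of -0.0011 (0.60 with members undetected in 1 gate set at their bound): C1qb gave 10.05, 10.24, 10.03 and 9.96 on the HC arrays and 5.33 and 7.45 on the DC arrays and Laptm5 13.33, 13.67, 13.39 and 13.52 on the HC arrays and 9.08 and 10.58 on the DC arrays, while 6 of the markers were detected on any DC array and 9 on any HC array, and their score was 0.15, 0.02, -0.17 and 0.52 on HC A to D and -0.55 and 0.03 on DC A and B. Mesenchyme and pericyte markers gave 1 higher and 3 lower of 18, with scores of -0.40, -0.32, -0.44 and 1.02 on HC A to D and 0.18 and -0.04 on DC A and B. The mesenchyme counts were 1 higher and 7 lower without HC D and 1 higher and 5 lower on beadchip 1 alone. The mesenchyme median was -0.21 over all 24 members on the array without the filter on dim probes, -0.23 without HC A, -0.21 without HC C, -0.66 without HC D, -0.13 without DC A, -0.62 on beadchip 1 alone, -0.12 in the authors' table, -0.64 with a filter at 4 of 13 arrays and -0.68 with a filter on the 6 arrays. The part of endothelial or other RNA in the HC profile was not tested.

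Of 11 neuron markers, 4 were higher in HC, 2 were lower and 5 did not pass, with a median difference of 0.10 (-0.12 with members undetected in 1 gate set at their bound). The higher ones, among them Rbfox3 (at least 34.7-fold), Nefm (at least 31.8-fold) and Syn1 (at least 11-fold), stood beside Uchl1, a general neuronal enzyme, at -0.76 ± 0.21, adjusted p = 0.013, Gap43 at 0.73 ± 0.52, adjusted p = 0.30 and Stmn2 at 0.10 ± 0.29, adjusted p = 0.82. Rbfox3 ranged from 11.95 to 12.25 on the HC arrays, nearly level, and gave 5.95 and 5.73 on the DC arrays. Schwann and satellite glia markers gave 1 higher and 3 lower of 13, with scores of -0.49, -0.13, -0.82 and 1.14 on HC A to D and 0.01 and 0.28 on DC A and B. The Schwann and satellite glia shares were 7.69% and 23.1%, against 15.6% and 20.3% over all genes. The erythroid markers gave 0.80 ± 0.85, adjusted p = 0.51 for Hba-a1 and 0.24 ± 0.18, adjusted p = 0.34 for Klf1. Of 20 immediate early and stress genes that respond to dissociation, 1 was higher in HC, 7 were lower and 12 did not pass, with a median difference of -1.05, and their score was -0.38, 0.32, -1.02 and -0.03 on HC A to D and 0.29 and 0.83 on DC A and B. The dissociation counts were 0 higher and 4 lower without DC A and with the beadchip as a block, 1 higher and 2 lower without DC B and 0 higher and 3 lower on beadchip 1 alone. The dissociation median was -0.68 without DC B. Fos gave 12.88, 13.68, 12.30 and 13.29 on the HC arrays and 13.79 and 14.27 on the DC arrays and Jun 10.50, 11.02, 9.27 and 10.74 on the HC arrays and 11.79 and 11.90 on the DC arrays. Their part in other differences was not tested. Uchl1 missed the threshold without DC B (adjusted p = 0.13), on beadchip 1 alone (0.15) and with the beadchip as a block (0.074). Fos missed the threshold without HC A (0.079), without HC C (0.070), without DC A (0.072), without DC B (0.26), on beadchip 1 alone (0.075), without the filter on dim probes (0.059), in a fit of the 6 arrays (0.083), with trend and robust eBayes (0.051) and with the beadchip as a block (0.071). Jun missed the threshold without DC A (0.099), without DC B (0.12), on beadchip 1 alone (0.068) and with the beadchip as a block (0.067).

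**Figure D5:**
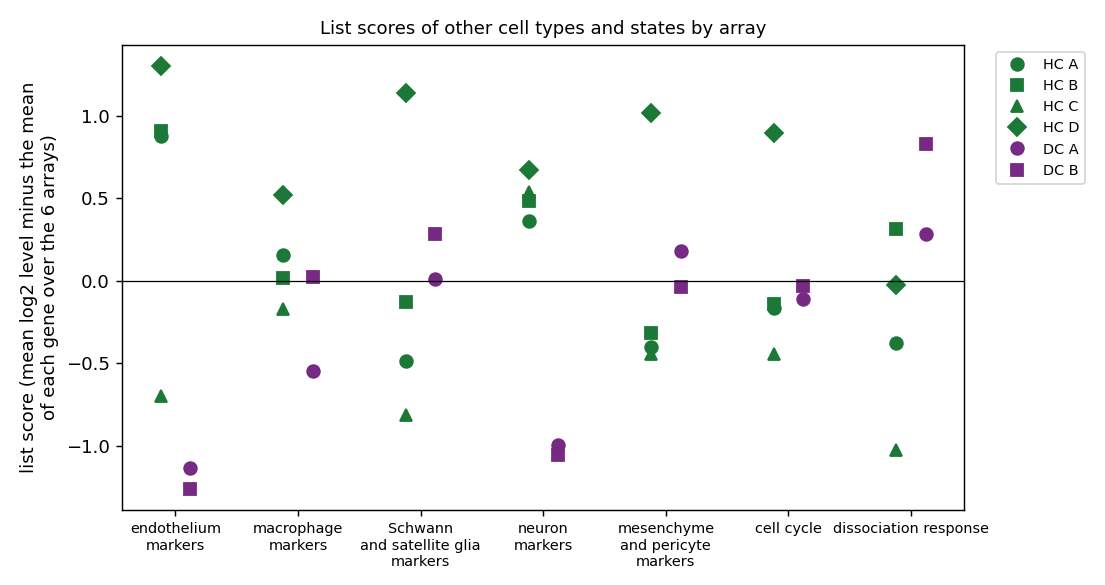
List scores (mean log2 level of a list's genes, each centred on its mean over the 6 arrays) of other cell types and states, green for HC and purple for DC, with a marker shape per replicate. HC C is the lowest and HC D the highest HC array for the endothelium score.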

How the data were processed

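RNA of sorted cochlear cells was amplified, biotin-labelled and hybridised to Illumina BeadChips, per the labels' protocols. For 25697 probes the deposited scanner table gave a raw average intensity (per the file headers) without normalization between arrays. The table also gave, per the file headers, 1 detection p-value for each signal. The authors' own quantile-normalized log2 table, also deposited, served as an alternative. A further 26 per-sample columns were not used. The sources used here do not name the scanner software.

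Gene symbols came from the GRCm38.p6 RefSeq table (24358 matched, and 1339 kept the file's symbol). In R 4.3.3, limma 3.58.1's neqc corrected the background (offset 16), quantile normalized and took log2 over the 13 arrays. A probe had to be detected (p under 0.01) on 2 or more arrays, and the probe with the highest mean stood for a gene, which left 10088 of 18038 genes. A mean for each population was fitted with lmFit on all 13 arrays, so that all populations gave the spread (8 residual and 3.70 prior degrees of freedom), and eBayes gave two-sided tests, adjusted by the Benjamini-Hochberg method. The median standard error was 0.225, and the number of arrays limits the precision. An exact permutation test of 4 against 2 arrays cannot go below p = 0.133 and was not used. Tested on simulated data, 55% of genes shifted by 1 and 98% of those shifted by 2 (log2) between HC and DC were recovered over 10088 genes. Only a small part of the genes was shifted there, with independent noise, while 35.9% were called in the data. The recovered shares are therefore not the sensitivity of the real comparison.

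The gates and the 37 gene lists were chosen with earlier results of these data known. Genes were named by rule: the 15 highest and 15 lowest called, non-overlapping genes, leaving out clone and predicted names; list members, mostly the 8 with the largest difference with partners or members that did not pass, though not all of these are named; and the sort markers. Replicate letters were not used to pair the arrays. Deviations from the group means correlated at -0.046 between HC A and DC A and -0.037 between HC B and DC B. Over all same-letter pairs of populations checked they ranged from -0.126 to 0.183. With 2 DC arrays the deviations of DC A and DC B mirror each other, so this check cannot settle the pairing. The alternatives covered normalization, filters, probes per gene, variance models, the beadchip and each array left out. Some genes that the rule would name are not reported here.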

Additional observations from a re-analysis of the deposited data

Results flagged for a closer look

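Among the 4 HC arrays, 1 array stood apart from the other 3 by Dixon's test at its 95% critical value for 10 of the 233 genes named and for 2 of 36 gene lists, where chance flags about 1 in 20. HC C was low for Apoc1 (log2 level 6.64, against a median of 7.62 on the other 3 arrays), Chrna9 (13.07 against 13.25), Esam (8.20 against 10.68) and Hes1 (8.28 against 9.02). HC D was low for Dpysl3 (11.73 against 12.30), Espnl (13.30 against 13.60) and Sfrp1 (11.31 against 12.32). It was high for Fbln2 (10.91 against 10.69). Hey1 was high on HC B (13.39 against 12.96) and Kcna10 on HC A (11.65 against 10.98). The mesenchyme and pericyte list score was high on HC D (1.02 against -0.40), and the score for glial metabolism and glutamate uptake was low on HC C (-0.19 against -0.05).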

How the results depend on the processing

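The counts of 1577 genes higher and 2044 lower in HC stayed within 1.5 times under every alternative that kept all HC and DC arrays. With 1 array left out they ranged from 1083 to 1552 and from 1206 to 2169, and leaving out DC A (1206) or DC B (1217) moved the lower count furthest. The call count of GER minus DC, 420, was 649 with array weights and ranged from 159 to 495 with 1 array left out, lowest without DC B (159) and without DC A (242). The authors' normalized table and the signals without background correction gave identical counts, 1653 higher and 2133 lower. Fitting replicate letters as a block, a pairing that the check of deviations does not settle, gave 1497 higher and 2089 lower. With that block Prox1 (-1.51, adjusted p = 0.0189), Crabp1 (-2.28, 0.0226) and Cdkn1c (-0.73, 0.0147) passed, and Eya1 (0.108), Mcam (0.0611), Notch1 (0.0826) and Npy (0.0793) missed the threshold. Higher endothelium genes were then 5, and lower genes were 2 among hair cell factors, 3 among Notch receptors and ligands, 9 in the cell cycle and 6 among mesenchyme markers. With the beadchip as a block the counts were 1429 and 1806, and on beadchip 1 alone, with 1 HC array, both were lower still.

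Of 213 called genes named, 170 stayed called in the same direction under all 19 alternatives that gave them a value. Without DC A 28 missed the threshold, without DC B 31, among the arrays of beadchip 1 23 and with the beadchip block 11. No called gene changed sign. Uncalled differences did: Gap43 (-0.017), Jag1 (0.054) and Stmn2 (-0.24) among the arrays of beadchip 1; Hes5 (0.20), Jag1 (0.17) and Stmn2 (-0.065) with the beadchip block; and Gjb2 (-0.0071) under median scaling. With 1 array left out the differences spanned -0.16 to 1.77 for Hba-a1, -0.58 to 0.11 for Hes5, -0.33 to 0.057 for Jag1, -0.32 to 0.13 for Sparcl1 and -0.11 to 0.23 for Stmn2. The cause was not tested.

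Of 51 named genes with several probes, none had another probe called in the opposite direction, and 8 called genes, among them Sox2, Wnt4 and Pkhd1l1, had a probe that was not called. Sizes differed between probes in both directions, as for Bdnf (1.32 against 4.73 by the chosen probe), Otof (2.11 against 6.52) and Calb2 (6.22 against 5.15). With 2 DC arrays, small differences may have been missed. In the simulation 55% of shifts of 1 were recovered, which is not the sensitivity of the real comparison.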
